A study of Mus musculus with 55 samples.

Results

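Of the 1094 Lamin A/C islands called in the nuclei of untreated wild type mouse liver, 247 (22.6%, 95% Clopper-Pearson interval 20.1 to 25.2) shared not a single base with a wild type H4K20me3 island. These 247 islands, called lamina-only islands here, are described below. They were chosen from the 2 wild type CUT&Tag island lists, so their lack of H4K20me3 in wild type liver is the rule and not a result. The remaining 847 Lamin A/C islands, which overlapped H4K20me3, served for comparison. CUT&Tag cuts out the DNA next to a bound antibody with a tethered transposase, and an island is a run of 20 kb windows in which such fragments were enriched.

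The chromatin assays compared untreated wild type (WT) livers with livers of Setd8-LKO mice 24 h after an injection of 3 mg/kg TCPOBOP, a strong mitogen for hepatocytes that activates the nuclear receptor CAR. The controls are labelled untreated, while the study's methods describe an injection of corn oil as vehicle, and which of these the controls received is not settled by the sources used here. All mice were male and 45 to 50 days old. Setd8-LKO mice carry Setd8 lox/lox alleles and an Alb-Cre transgene, and the study's methods describe the inactivation as specific to hepatocytes. Genotype and treatment changed together in every chromatin comparison, so their effects cannot be told apart there, whereas RNA was also measured in TCPOBOP-treated WT livers. Lamin A/C was profiled in 4 WT and 4 Setd8-LKO libraries, H4K20me3 in 2 and 2, H3K27ac in 3 and 3, chromatin accessibility (ATAC) in 3 and 5, CTCF in 4 and 2 and Smc3 in 3 and 2. The 4 WT Lamin A/C libraries carry repeated replicate labels, and the number of livers behind them is not given in the sources used here. The deposited chromatin files hold 1 list per condition and no value per library, so differences between lists have no replicate error, and intervals cover counting error only. Islands are not replicates of a condition, and differences between classes of islands were not tested.

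The nuclear lamina is a meshwork of lamin proteins under the inner nuclear membrane. The long stretches of genome that touch it, lamina-associated domains, are usually poor in genes, rich in A and T and weakly transcribed. Trimethylation of histone H4 at lysine 20 is a mark of constitutive heterochromatin. Setd8 (also named Kmt5a) places the single methyl group on this lysine that other enzymes extend. CTCF is a zinc finger protein that binds a long DNA motif, and Smc3 is a subunit of cohesin, the ring complex that extrudes chromatin loops and often halts at CTCF.

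The lamina-only islands still held bound CTCF, and the base sequence under these sites is given first because the CTCF motif is the sequence feature that the peak lists could be set against. The following 5 sequences span 201 bases around the summits of the WT CTCF peaks with the highest fold enrichment inside the islands, among those with a match to the CTCF consensus (mm10, read 5′ to 3′ on the strand given), with 1 best match in capitals. The window on chromosome 3 holds 2 matches, of which 1 is marked.
chr1:22269060-22269260, minus strand: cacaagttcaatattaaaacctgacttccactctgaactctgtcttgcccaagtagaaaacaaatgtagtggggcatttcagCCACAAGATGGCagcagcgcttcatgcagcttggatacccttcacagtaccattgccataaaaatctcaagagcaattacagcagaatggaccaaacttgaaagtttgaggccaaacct
chr2:178137647-178137847, plus strand: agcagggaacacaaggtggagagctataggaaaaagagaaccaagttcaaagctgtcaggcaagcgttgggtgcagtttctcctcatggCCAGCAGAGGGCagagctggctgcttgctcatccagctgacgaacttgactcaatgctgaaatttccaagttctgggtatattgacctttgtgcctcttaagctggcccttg
chr3:14381719-14381919, minus strand: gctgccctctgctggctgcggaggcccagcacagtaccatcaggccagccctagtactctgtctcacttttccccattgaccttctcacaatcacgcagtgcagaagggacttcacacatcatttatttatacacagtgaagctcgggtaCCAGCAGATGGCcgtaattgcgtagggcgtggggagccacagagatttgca
chr14:117882378-117882578, minus strand: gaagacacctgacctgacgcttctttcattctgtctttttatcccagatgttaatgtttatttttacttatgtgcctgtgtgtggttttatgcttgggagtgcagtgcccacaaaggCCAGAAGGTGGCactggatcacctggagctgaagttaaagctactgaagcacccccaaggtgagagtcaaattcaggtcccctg
chr12:113222107-113222307, minus strand: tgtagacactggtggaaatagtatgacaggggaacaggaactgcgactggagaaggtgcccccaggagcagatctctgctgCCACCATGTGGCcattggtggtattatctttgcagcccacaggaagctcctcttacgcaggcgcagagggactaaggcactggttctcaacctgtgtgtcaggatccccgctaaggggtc
Their fold enrichments ran from 17.0 to 19.7. The sites on chromosomes 1, 3 and 12 were intergenic, 307 kb from the start of Kcnq5, 98.9 kb from Slc7a12 and 36.3 kb from Tmem121, while the others lay in introns of Phactr3 and Gpc6. The sites on chromosomes 3 and 12 were also peaks in the Setd8-LKO list, and the other 3 were not.

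The CTCF peaks with the highest enrichment in the Setd8-LKO list of these islands lay close to gene starts, and the 2 highest are shown.
chr3:127634156-127634356, plus strand: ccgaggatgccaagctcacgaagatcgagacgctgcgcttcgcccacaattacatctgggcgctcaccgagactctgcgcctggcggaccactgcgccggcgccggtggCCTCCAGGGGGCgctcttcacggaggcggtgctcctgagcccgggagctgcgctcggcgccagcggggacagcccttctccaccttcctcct
chr16:85173703-85173903, plus strand: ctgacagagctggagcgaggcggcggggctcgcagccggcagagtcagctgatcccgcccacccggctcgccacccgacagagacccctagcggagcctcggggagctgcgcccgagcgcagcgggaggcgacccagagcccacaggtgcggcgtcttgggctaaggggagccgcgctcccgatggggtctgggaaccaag
The first (114-fold) lay in the exon of Neurog2, which encodes a neural transcription factor, 1.12 kb from its start. The second (109-fold) lay 0.037 kb from the start of App, the amyloid precursor gene, and held no match to the consensus. Both overlapped a WT CTCF peak.

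The lamina-only islands covered 71.6 Mb and were short. Their length ran from 40 to 1500 kb with a median of 240 kb (quartiles 180 and 340 kb), against a median of 600 kb and a maximum of 7360 kb for the islands with H4K20me3, which covered 778.18 Mb. Their enrichment was also lower, with a median SICER2 score of 0.432 per kb (quartiles 0.316 and 0.625) against 1.11 per kb. A long island has more chances to meet an H4K20me3 island, so length is tied to the rule, and comparisons were repeated within classes of length (up to 200 kb, 200 to 400 kb and longer).

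Distances from lamina-only islands to H4K20me3 islands varied widely. The rule excludes any shared base, and no reference was set beside these distances. The nearest WT H4K20me3 island lay at a median of 340 kb (quartiles 140 and 700 kb) and at most 6800 kb, and 55 of the 247 (22.3%) lay within 100 kb of one, while 35 (14.2%) lay more than 1000 kb away. Within 100 kb of a Lamin A/C island with H4K20me3 lay 86 (34.8%). At the edge of the rule, 4 islands abutted an H4K20me3 island without sharing a base with it: chr3:138700001-138920000, chr10:26900001-27780000, chr17:49660001-49900000 and chr17:62420001-62700000. Just outside it, 7 Lamin A/C islands with a median length of 240 kb shared 20 kb with H4K20me3. Of the first 4 islands, 3 overlapped the Setd8-LKO Lamin A/C list, and of the latter 7, 6 did.

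Chromosome 2 held the most lamina-only islands (37, or 32.5% of its Lamin A/C islands) and chromosome 15 had a high share (21, 42.0%). Chromosome 7 had few (5, 8.33%) and chromosome X had 4. Chromosomes 19 and Y held no WT Lamin A/C island of either class.

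In base composition the lamina-only islands stood between the other Lamin A/C islands and the whole genome. Their median GC content was 40.1% (quartiles 38.8 and 41.6), against 38.8% in islands with H4K20me3 and 41.7% in the genome. Repeats, read as soft-masked bases, made up a median of 28.7% of a lamina-only island (quartiles 25.0 and 34.3), below both the islands with H4K20me3 (38.8%) and the genome (36.4%). The order of the 2 classes held in each length class, with masked medians of 30.9 against 43.0%, 28.2 against 39.0% and 28.3 against 38.1% from the shortest class to the longest. The ratio of observed to expected CpG was 0.171, against 0.149 with H4K20me3 and 0.190 in the genome.

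Genes were about as sparse as in the other Lamin A/C islands. The lamina-only islands held the starts of 235 protein-coding genes, or 3.28 per Mb, against 3.04 per Mb in islands with H4K20me3 and 10.8 per Mb outside Lamin A/C islands. They made up 1.07% of all coding genes, against 10.8% in islands with H4K20me3, and the families that follow are read against these shares. Of the 247 islands, 125 (50.6%) held no coding start and 27 held no annotated gene start of any kind. Of 1135 olfactory receptor genes, the large family of odorant sensors that lies in clusters, 2 started in lamina-only islands (Olfr275 and Olfr273) and 770 (67.8%) in islands with H4K20me3. Of 329 vomeronasal receptor genes, which detect pheromones, 1 (Vmn2r19) and 158 (48.0%) did so. None of 97 cadherin and protocadherin genes, which encode cell adhesion proteins, lay in a lamina-only island, and none of 61 serpin genes did. At a share of 1.07%, counts of 0 in families of this size are near the background.

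Ion channel and neurotransmitter receptor genes were the listed family best represented, with 8 of 177 (4.52%, against 1.07% of all coding genes and 22.0% of the family in islands with H4K20me3). These were the potassium channel genes Kcnq5, Kcnd3, Kcna5 and Kcna1, the sodium channel genes Scn2a and Scn3a and the GABA receptor genes Gabrp and Gabrr3. Solute carriers contributed 6 of 371, near the share of all coding genes, among them Slc12a1, the sodium-potassium-chloride cotransporter of the kidney. Of the 100 cytochrome P450 genes, which are central to liver drug metabolism, none started in a lamina-only island, which is near the background, and none started in an island with H4K20me3.

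In the Setd8-LKO list, 147 of the 247 lamina-only islands (59.5%, interval 53.1 to 65.7) overlapped a Lamin A/C island, against 753 of 847 (88.9%, 86.6 to 90.9) of the islands with H4K20me3. The 100 without overlap made up 40.5%, where 17.7% of all 1094 islands had none. Counted in bases, 54.6% of the length of lamina-only islands was covered by the Setd8-LKO list, against 88.4%. Of the 247, 133 (53.8%) were covered over at least 50% of their length, 50 were covered in full, and 14 were met by 2 or more separate islands.

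Length and enrichment moved with this difference. Among islands up to 200 kb, 51.5% of lamina-only islands and 65.2% of those with H4K20me3 overlapped the Setd8-LKO list. From 200 to 400 kb the shares were 52.9% and 78.0%, and above 400 kb they were 91.3% (42 of 46) and 97.0%. At matched score the shares lay closer together. With a score up to 100, 41.7% of both classes overlapped (55 of 132 and 43 of 103). Between 100 and 200 the shares were 69.2% (56.6 to 80.1) and 80.0% (71.1 to 87.2), between 200 and 400 they were 90.3% and 91.8%, and above 400 they were 100% (19 of 19) and 99.6%. Within the lamina-only class, the islands that overlapped were longer (median 260 against 220 kb) and had a higher score per kb (0.508 against 0.353), while GC content (40.2 against 40.0%) and masked share (28.7 against 28.8%) were close.

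**Figure D1:**
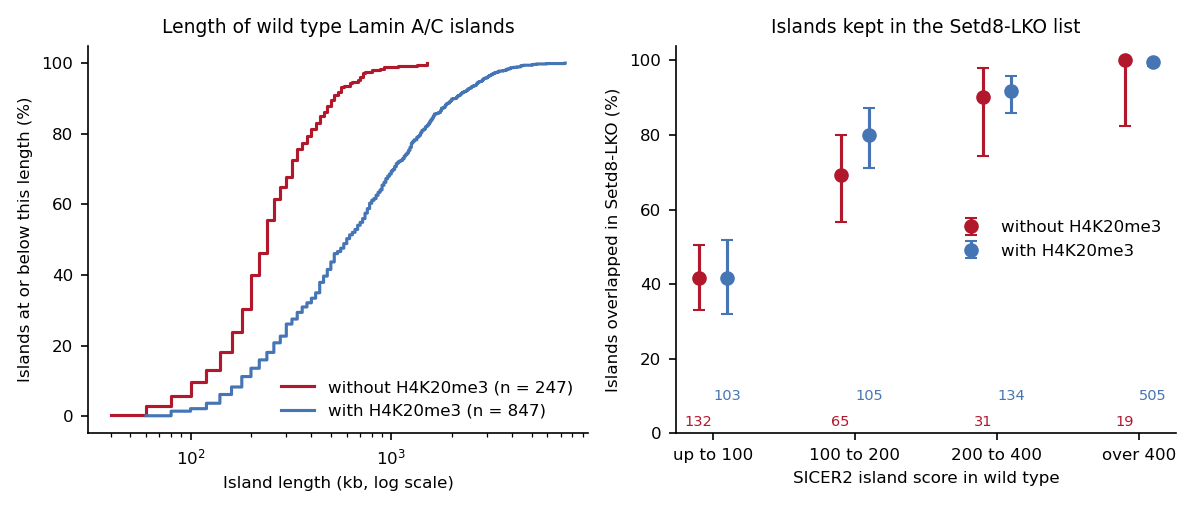
Left, cumulative percentage of WT Lamin A/C islands against length in kb (log axis), without and with H4K20me3. Right, percentage of each class that overlapped a Setd8-LKO Lamin A/C island, by class of SICER2 score, with 95% Clopper-Pearson intervals and the number of islands below. Lamina-only islands were short (median 240 kb), and at scores up to 100 both classes had a share of 41.7%.

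Chromosome 18 stood apart. Of its 15 lamina-only islands, 1 overlapped the Setd8-LKO Lamin A/C list, while 27 of its 34 islands with H4K20me3 did. The Setd8-LKO list covered 68.6% as many bases as the WT list on this chromosome and 52.8% on chromosome X, against 84.8 to 97.2% on the others. Without chromosome 18, which was left out after the data were seen, 62.9% of the other 232 lamina-only islands overlapped. By number of islands, 23 of 37 overlapped on chromosome 2, 17 of 23 on chromosome 3 and 15 of 21 on chromosome 15.

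**Figure D2:**
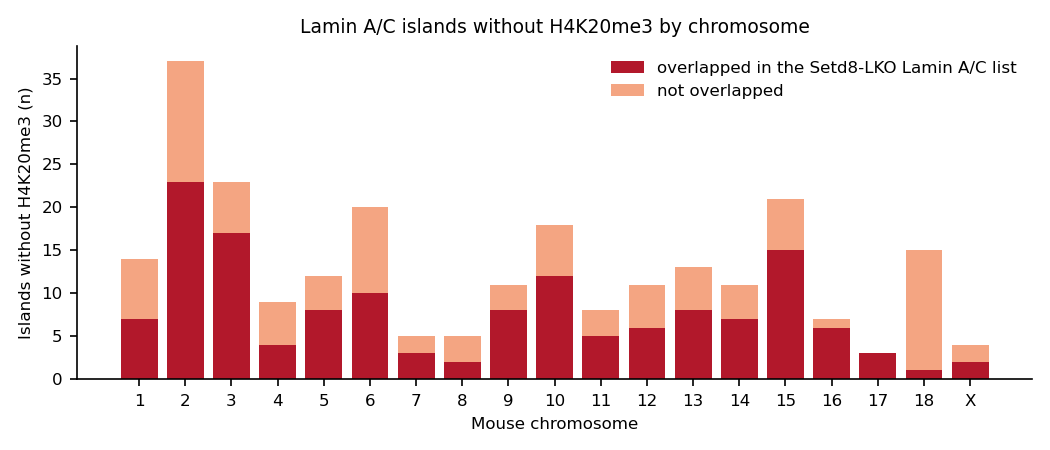
Lamina-only islands on each chromosome, as bars split into islands that did and did not overlap a Setd8-LKO Lamin A/C island. Chromosome 2 held 37 islands, and on chromosome 18 only 1 of 15 overlapped.

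An H4K20me3 island of the Setd8-LKO list overlapped 32 of the 247 lamina-only islands (13.0%, 9.03 to 17.8), covering 3.41% of their bases. Of all 1094 islands, 68.6% overlapped one. Since the lamina-only islands were chosen for having none in WT, this share could only rise. Of the 32 islands, 23 (71.9%) overlapped a Setd8-LKO Lamin A/C island, against 124 of the other 215 (57.7%). H4K20me3 of the Setd8-LKO list covered 5 islands whole: chr3:14340001-14440000, chr4:36680001-36840000, chr12:62880001-62960000, chr14:106360001-106440000 and chrX:156680001-156920000. Of these, only the island on chromosome 12 had no overlap in the Setd8-LKO Lamin A/C list, and the island on chromosome 3 holds the CTCF site near Slc7a12 printed above.

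Marks of active chromatin were rare in lamina-only islands, though less so than in the other Lamin A/C islands. H3K27ac, an acetylation found at active promoters and enhancers, had 111 WT peaks there, or 1.55 per Mb (exact Poisson interval 1.28 to 1.87), against 0.466 per Mb with H4K20me3 and 15.3 per Mb outside. ATAC peaks, which mark open chromatin, numbered 163 or 2.28 per Mb (1.94 to 2.65), against 0.618 and 14.8 per Mb. CTCF had 53 peaks or 0.740 per Mb (0.554 to 0.968) against 0.186, and Smc3 had 71 or 0.992 per Mb (0.774 to 1.25) against 0.227. In these WT lists the intervals of both island classes did not meet above 400 kb for any of the 4 assays, nor in the shortest islands for ATAC (3.21 against 0.631 per Mb), nor from 200 to 400 kb for ATAC and CTCF. They did meet up to 200 kb for H3K27ac (1.77, 1.16 to 2.60, against 0.689, 0.356 to 1.20), CTCF and Smc3, and from 200 to 400 kb for H3K27ac and Smc3. In all, 121 of the 247 islands (49.0%) held no peak of the 4 WT lists and 80 (32.4%) held no peak of any of the 8 lists.

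In the Setd8-LKO lists, H3K27ac, CTCF and Smc3 peaks in lamina-only islands were more numerous than in WT, while ATAC peaks were about as many. This was not particular to the lamina-only islands. In islands with H4K20me3, H3K27ac went from 363 to 597 peaks, CTCF from 145 to 1392, Smc3 from 177 to 980 and ATAC from 481 to 475. H3K27ac peaks in lamina-only islands numbered 165 or 2.30 per Mb (1.97 to 2.68), while the density outside Lamin A/C islands was 15.0 per Mb. ATAC peaks numbered 155 or 2.16 per Mb (1.84 to 2.53). CTCF peaks numbered 204 or 2.85 per Mb (2.47 to 3.27), but the whole list had also grown from 5837 to 20875 peaks. Smc3 peaks numbered 207 or 2.89 per Mb (2.51 to 3.31), with lists of 13044 and 21599 peaks. CTCF density in the Setd8-LKO list was alike in the short islands of both classes (3.07 and 3.10 per Mb up to 200 kb) and higher in lamina-only islands above 400 kb (2.36 against 1.71 per Mb). CTCF was profiled in 4 WT and 2 Setd8-LKO libraries and Smc3 in 3 and 2, and the part of this in the list sizes was not tested.

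**Figure D3:**
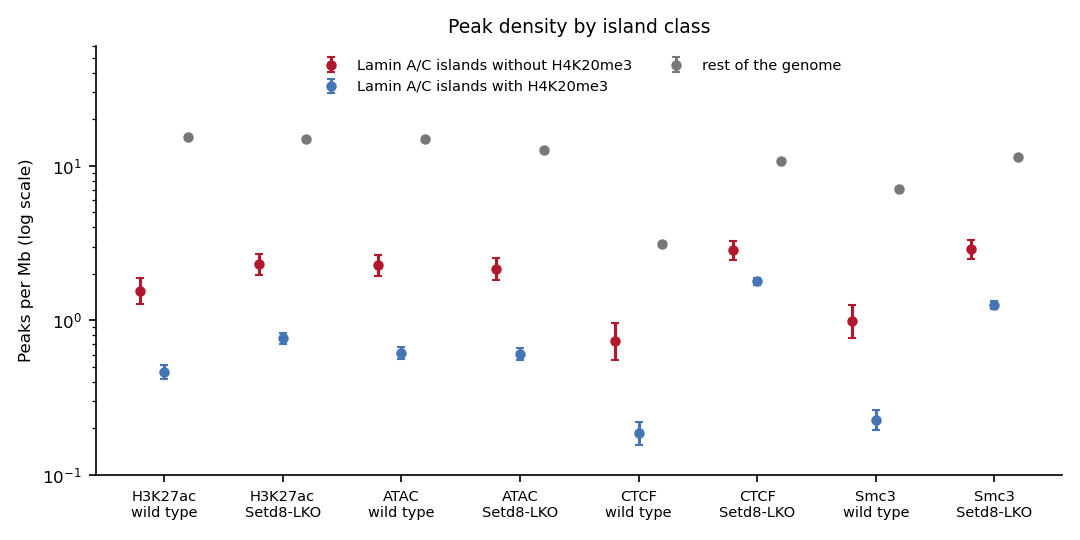
Peaks per Mb of H3K27ac, ATAC, CTCF and Smc3 in lamina-only islands, in Lamin A/C islands with H4K20me3 and outside Lamin A/C islands, for the WT and the Setd8-LKO lists, with exact Poisson intervals on a log axis. Lamina-only islands lay between the other classes in every list, with 1.55 H3K27ac peaks per Mb in WT against 0.466 and 15.3.

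H3K27ac and ATAC peaks thinned out across the island borders. Among lamina-only islands, WT H3K27ac had 8.20 peaks per Mb from 100 to 80 kb outside the border, 2.43 in the last 20 kb outside, 2.83 in the first 20 kb inside and 0.673 from 40 to 60 kb inside. ATAC peaks fell from 9.11 per Mb at 60 to 40 kb outside to 2.63 in the last 20 kb outside, with 5.26 in the first 20 kb inside. Peaks at least 20 kb inside both borders still had a density of 1.34 per Mb for WT H3K27ac and 1.80 for WT ATAC. In islands with H4K20me3, WT H3K27ac had 2.21 peaks per Mb in the first 20 kb inside and 0.663 from 40 to 60 kb inside. From 60 to 80 kb inside, it had 1.11 in lamina-only islands and 0.566 in those with H4K20me3. ATAC had 3.25 in the first 20 kb inside islands with H4K20me3. Read as ratios, the gaps between classes in these bins were smaller than those over whole islands. Deeper bins varied and held few peaks. WT H3K27ac had 0.376 against 0.316 per Mb from 100 to 120 kb inside and 1.84 against 0.484 from 120 to 140 kb. WT ATAC had 1.88 against 0.527 per Mb from 100 to 120 kb inside. Short islands lie nearer to their borders, and the part of this was not tested. Borders are set in steps of 20 kb, which limits how finely the profiles can be read.

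**Figure D4:**
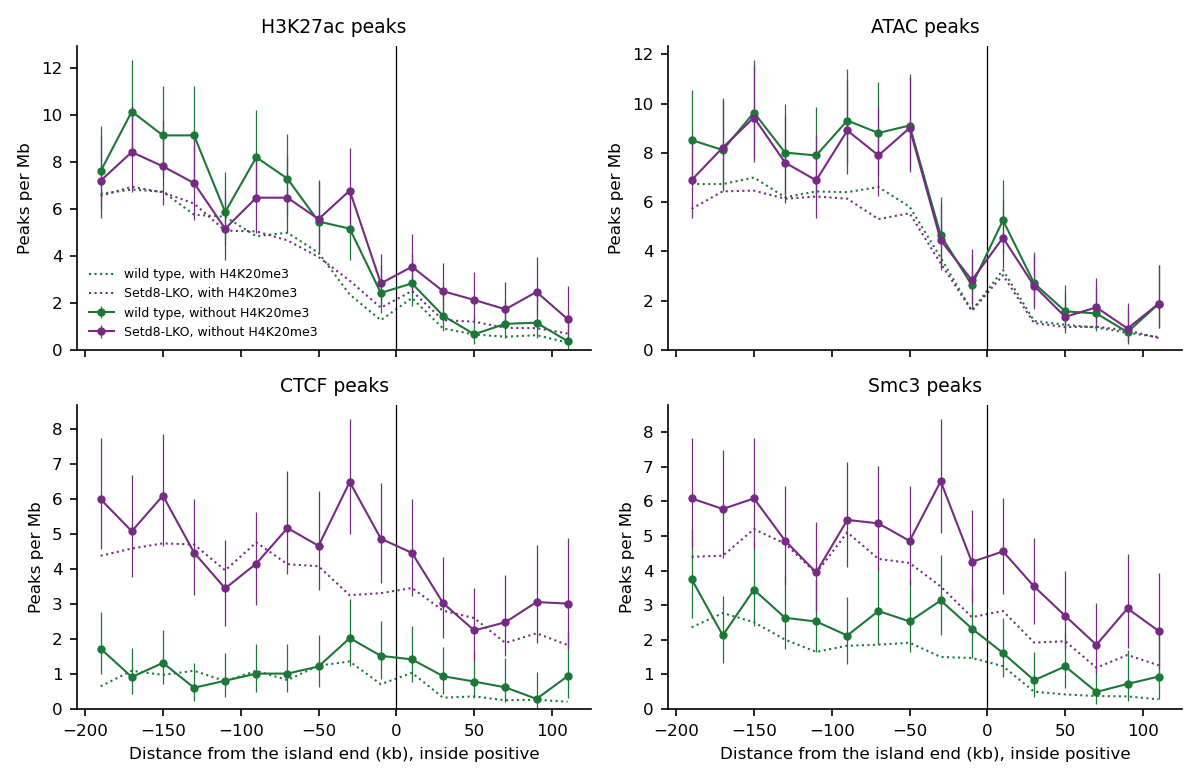
Peaks per Mb in bins of 20 kb against the distance from the border of lamina-only islands in kb (negative outside, positive inside), for the WT and Setd8-LKO lists of each assay, with exact Poisson intervals; dotted lines show islands with H4K20me3. WT H3K27ac density went from 8.20 per Mb at 100 to 80 kb outside to 0.673 at 40 to 60 kb inside.

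Most H3K27ac peaks of WT were met again in the Setd8-LKO list. Of the 111 WT peaks, 7 (6.31%, 2.57 to 12.6) overlapped no Setd8-LKO peak, where 22.3% of the whole WT list did not. It was 35 of 363 (9.64%, 6.81 to 13.2) in islands with H4K20me3, so the low share was not particular to the lamina-only islands. Of the 165 Setd8-LKO peaks, 64 (38.8%, 31.3 to 46.7) overlapped no WT peak, where 25.5% of the whole list did not. The same share was 47.9% in islands with H4K20me3, so it was not particular to the lamina-only islands. These 64 peaks lay in 49 islands, with 49 peaks in islands that overlapped the Setd8-LKO Lamin A/C list and 15 in those that did not. They were weaker (median 9.50-fold enrichment) than the shared ones (26.3-fold). Of the 64, 34 (53.1%) lay within 1 kb of a coding start, 47 (73.4%) overlapped a Setd8-LKO Smc3 peak and 34 (53.1%) a CTCF peak, but 4 (6.25%) overlapped an ATAC peak. The same shares were 44.8%, 81.5%, 52.1% and 3.85% in islands with H4K20me3, so they were not particular to the lamina-only islands. Among the shared Setd8-LKO peaks of lamina-only islands they were 70.3%, 87.1%, 62.4% and 46.5%.

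For ATAC, 45 of the 163 WT peaks (27.6%) had no Setd8-LKO partner, against 7367 of 27298 in the whole list, and 36 of 155 Setd8-LKO peaks (23.2%) had no WT partner, against 14.4%. These ATAC shares were 28.1% and 26.9% in islands with H4K20me3, so they were not particular to the lamina-only islands. Of 53 WT CTCF peaks, 31 (58.5%) were not in the Setd8-LKO list, against 41.9% of all WT CTCF peaks, and 182 of 204 Setd8-LKO peaks (89.2%) were not in WT, against 83.9%. For Smc3, 53 of 71 WT peaks (74.6%) and 189 of 207 Setd8-LKO peaks (91.3%) had no partner, against 57.5% and 76.0% of the lists. Islands with H4K20me3 were alike, with 56.6% of WT and 95.5% of Setd8-LKO CTCF peaks and 71.8% and 95.1% of Smc3 peaks without a partner. The 182 CTCF peaks without a WT partner were weak (median 12.1-fold against 31.1-fold for shared peaks), 80 (44.0%) lay within 1 kb of a coding start, and 133 (73.1%) overlapped a Setd8-LKO Smc3 peak. Outside Lamin A/C islands the same shares were 43.9% and 74.3%, so they were not particular to the lamina-only islands, and in islands with H4K20me3 they were 23.9% and 46.0%.

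The CTCF consensus was common under WT peaks and uncommon under Setd8-LKO peaks. A window of 100 bases to each side of the summit held the CTCF consensus (12 letters, at most 1 mismatch, either strand) in 40 of the 53 WT peaks in lamina-only islands (75.5%, 61.7 to 86.2), against 69.0% of the whole WT list and 0% of windows moved by 2000 bp. In the Setd8-LKO list it was found in 36 of 204 (17.6%, 12.7 to 23.6), against 21.6% of the whole list and 1.96% of moved windows. A missing match says only that these letters were not in the window.

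The longest lamina-only island, chr11:24660001-26160000 (1500 kb), held no coding start and was covered in full by the Setd8-LKO Lamin A/C list. The next, chr16:84900001-86240000 (1340 kb), holds App, Cyyr1 and the metalloprotease genes Adamts1 and Adamts5. It was covered over 70.1% and had the most WT H3K27ac peaks of any lamina-only island, 9 against 7 in Setd8-LKO, with 2 and 7 CTCF peaks. The island chr3:126660001-127740000 (1080 kb) holds Neurog2, Ank2 (an ankyrin that anchors membrane proteins), Larp7 and Zgrf1. It was covered over 53.7%, with 5 WT and 9 Setd8-LKO H3K27ac peaks, the most of any lamina-only island in the latter list, and 3 and 7 CTCF peaks.

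The highest score per kb was that of chr2:13580001-13820000 (1.63), which holds the sialyltransferase gene St8sia6. It was followed by chr10:107420001-107840000 (1.61), which holds the muscle regulators Myf5 and Myf6 together with Ptprq and had no peak in any of the 8 lists. Of the 5 longest islands without overlap in the Setd8-LKO Lamin A/C list, 3 were on chromosome 18. Another was chr1:50900001-51420000 (520 kb), with Tmeff2 and Cavin2. The island chr10:13000001-13800000, with 8 coding starts including Plagl1, Ltv1 and Pex3, was covered over only 20.0% and had 7 and 8 H3K27ac peaks.

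RNA was then examined for genes that start in lamina-only islands. The deposited expression tables hold only genes that the authors had selected for change on these same libraries, so counts of higher and lower genes are read against the other listed genes and not against all genes. In the table of Setd8-LKO with TCPOBOP (4 libraries) against untreated WT (5), 43 of 3900 genes started in lamina-only islands. Of the 235 coding genes in these islands, 29 (12.3%) were listed, against 6.16% in islands with H4K20me3 and 14.5% outside. In bulk liver, fewer cells of a type and less RNA per cell cannot be told apart. Raw counts of the listed genes summed to between 5734065 and 12780869 per library, which is not the full depth.

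The targeted gene is listed as Kmt5a. Its normalized counts were 613, 567, 761, 563 and 715 in WT and 1341, 1465, 1338 and 1313 in the libraries labelled Setd8-LKO. It was thus higher and not lower in the latter (log2 fold change 1.08 ± 0.14 SE, adjusted p = 0.000452). With DESeq2 size factors computed from the listed genes the call was lost (0.27 ± 0.19, adjusted p = 1). Gene-level counts do not resolve the floxed exon, so this neither checks nor contradicts the deletion, and "Setd8-LKO" stands for the label throughout.

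Of 42 genes tested, 32 (76.2%) were called higher and 3 (7.14%) lower in the libraries labelled Setd8-LKO. Among all listed genes tested, 50.5% were higher and 34.6% lower, and in islands with H4K20me3, 113 of 192 (58.9%) were higher. A call needed an adjusted p under 0.05 and at least a doubling or halving (log2 of 1). The median log2 fold change was 1.79, against 1.16 for all listed genes. All 35 called genes kept their direction within both sequencing runs, and in 33 the groups did not overlap. For these 33 the direction within each run was thereby fixed, and run A holds 1 Setd8-LKO library, so the runs give no separate support. Over the whole table, which was selected for change, the groups did not overlap in 3309 of 3900 genes (84.8%), against 36 of the 43 (83.7%) in lamina-only islands. Of the 42 tested genes, 9 (21.4%) passed the count filter only through the Setd8-LKO libraries and 3 only through WT, against 18.6% and 7.89% of all listed genes tested. Among the 32 called higher, 6 (18.8%) passed only through the Setd8-LKO libraries: Celf4, Kif18a, Npnt, Ighg2b, Gm11802 and Igha. These 6 had to differ in order to be tested. With DESeq2 size factors computed from the listed genes, the median of all listed genes moved to 0.30 and that of the lamina-only islands to 0.99, with 16 higher and 4 lower. The whole table turned from 1881 higher and 1289 lower to 766 higher and 1464 lower. No called gene changed sign under these factors, which are named listed-gene factors in what follows. Of the 32 higher genes, 23 were protein coding. The 7 tested genes without a call were Ighd and 6 with log2 fold changes of 1.14 to 1.46 (Prrx1, Thsd7a, Gm45449, Gabrr3, Paqr8 and Cpne8), and the 1 gene not tested, D430020J02Rik, was below the count filter.

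With the authors' factors, genes called higher lay both in islands that overlapped the Setd8-LKO Lamin A/C list and in islands that did not. In islands that overlapped, 24 of 30 tested genes were higher and 1 was lower. In islands that did not, 8 of 12 were higher and 2 were lower. With listed-gene factors, calls were lost in both kinds of island. In those without overlap, Col1a2 and Gm11802 stayed higher. Calls were lost there for Col4a4, Celf4, P2ry14, Ccdc88a, Cavin2 and 9330175M20Rik, while Tmeff2 and Gm20300 stayed lower. The antisense gene 9330175M20Rik spans Cavin2, and whether their reads were told apart is not known. An H3K27ac peak lay within 1 kb of the start in 14 of the 32 higher genes in WT and in 18 in Setd8-LKO. For Smc3 the numbers were 4 and 18, for CTCF 1 and 11, and for ATAC 8 and 8. The 7 tested genes without a call had 3 and 3 for H3K27ac, 1 and 4 for Smc3, 1 and 3 for CTCF and 1 and 2 for ATAC. The higher Smc3 and CTCF numbers in Setd8-LKO were thus not particular to genes called higher. None of the 3 lower genes had a peak of any list there. Shares over all listed genes are not set beside these counts. Island borders are set in steps of 20 kb. Among called genes, Tmeff2, Ncapg2, Gm2582, Gm20300, Arhgap11a, Npnt and Smc2 start 0.646 to 19.2 kb from a border of their island. Of these, Arhgap11a, Npnt and Gm2582 extend beyond the island.

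Arhgap11a, which encodes a regulator active in dividing cells, had normalized counts of 40, 24, 42, 55 and 39 in WT and 385, 375, 390 and 341 in Setd8-LKO. The groups lay far apart (log2 fold change 3.22 ± 0.22, adjusted p = 1.07e-05). Its island, chr2:113840001-114040000, was covered over 70.0%.

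Smc2, the core ATPase subunit of condensin, had 53, 41, 56, 34 and 91 in WT and 337, 348, 278 and 203 in Setd8-LKO (2.41 ± 0.29, adjusted p = 0.000323). Ncapg2, a subunit of condensin II, had 21, 13, 45, 30 and 51 in WT and 150, 241, 129 and 133 in Setd8-LKO (2.34 ± 0.38, adjusted p = 0.0021). For Ncapg2 the change was 1.65 within run A and 3.31 within run B. Kif18a, a kinesin of the mitotic spindle, had 1, 1, 15, 11 and 8 in WT and 43, 41, 38 and 42 in Setd8-LKO (2.44 ± 0.52, adjusted p = 0.0137). Both WT values of 1 came from run B and the others from run A, and the change was 1.84 within run A and 4.78 within run B. With listed-gene factors its call was lost (adjusted p = 0.1).

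Diaph3, a formin that nucleates actin filaments, had 17, 16, 29, 26 and 18 in WT and 159, 142, 190 and 135 in Setd8-LKO (2.88 ± 0.24, adjusted p = 3.01e-05). Mcm3, a subunit of the replicative helicase, was named after its values were seen. It had 69, 79, 78, 100 and 98 in WT and 254, 424, 148 and 336 in Setd8-LKO (1.78 ± 0.28, adjusted p = 0.00193), and listed-gene factors ended its call (adjusted p = 0.065). Its lowest Setd8-LKO value was 148 and its highest WT value 100.

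Of the genes in the following sentences, all but Npnt were named after their values were seen. Npnt, an integrin ligand of basement membranes, had 2, 4, 13, 8 and 3 in WT and 114, 96, 126 and 35 in Setd8-LKO (3.87 ± 0.52, adjusted p = 0.000607). Its log2 change was 2.06 in run A, which holds 1 Setd8-LKO library, and 5.01 in run B. Col1a2, a chain of type I collagen, had 346, 202, 382, 321 and 366 in WT and 1995, 1836, 770 and 1062 in Setd8-LKO (log2 2.13). Fbn1 (fibrillin), Lama2 (a laminin chain), Col4a4 (a basement membrane collagen), Plod2 (a collagen lysyl hydroxylase), Adamts1 and Adamts5 were also higher, by 1.91 to 2.28 on the log2 scale. For Col4a4 the groups were not separate, as its lowest Setd8-LKO value and its highest WT value were both 15. Setd8-LKO replicates 1 to 4 had 541, 602, 199 and 182 for Fbn1, 245, 211, 80 and 105 for Lama2 and 223, 165, 61 and 73 for Adamts5. App had 1256, 1204, 1519, 1241 and 1376 in WT and 4330, 3782, 3593 and 3474 in Setd8-LKO (1.52). With listed-gene factors the calls of App (0.71, adjusted p = 0.0688), Adamts5 (1.05, adjusted p = 0.187) and Col4a4 (0.99, adjusted p = 0.507) were lost, as were those of the gene models named next. In the App island, 2 antisense genes and a pseudogene were also higher (Gm49227, Gm10791 and Gm6278), and the strand setting of the counting is not given in the sources used here.

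Markers of other liver cells moved in the same libraries. Of the listed markers, both of those for stellate cells and fibroblasts (Col1a1 and Pdgfrb, of 6 in the marker list) were higher, with summed normalized counts of 182 to 466 in WT and 820 to 2415 in Setd8-LKO. All 5 cholangiocyte markers were listed and 4 were higher (422 to 686 and 1617 to 7426). Of 7 hepatocyte markers, 5 were listed, of which 4 were lower and 1 was higher (927624 to 1605821 and 594400 to 777480). Of 6 macrophage markers only Marco was listed (73 to 272 and 304 to 489), without a call, and no endothelial marker was listed. With listed-gene factors the calls of Pdgfrb, Sox9 and Cyp3a11 were lost. No marker starts in a lamina-only island, and their part in the results was not tested.

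Genes of the immunoglobulin heavy chain locus start in the island chr12:113220001-113420000, which was covered in full by the Setd8-LKO list. Igha and Ighg2b had under 10 raw counts in every WT library. Like Npnt, Kif18a, Gm11802 and Celf4, they passed the count filter only through the Setd8-LKO libraries. They thus had to differ in order to be tested. Igha, the constant region of IgA made by plasma cells, had 4, 6, 4, 9 and 8 in WT and 170, 160, 54 and 52 in Setd8-LKO (4.08 ± 0.48, adjusted p = 0.000246). Ighg2b, the constant region of an IgG, had 2, 1, 0, 0 and 0 in WT and 72, 47, 14 and 21 in Setd8-LKO (adjusted p = 0.000839). With only 3 raw WT counts in all, the ratio of its means was 64.2, with a counting interval of 21.6 to 314. Ighd, the constant region of IgD in the same island, passed the count filter only through the WT libraries. It did not pass the test (log2 fold change -1.24, adjusted p = 0.278), but was lower with listed-gene factors (-2.03, adjusted p = 0.0125). Constant region genes resemble each other in sequence, so the split of reads among them is uncertain.

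Ptprn2, a receptor-type phosphatase of secretory vesicles, starts in the same island as Ncapg2, chr12:116400001-116800000. It had 77, 128, 106, 105 and 98 in WT and 610, 527, 406 and 581 in Setd8-LKO (2.37 ± 0.19, adjusted p = 2.46e-05). The antisense gene Gm11802 had 16, 8, 7, 9 and 3 in WT and 56, 41, 50 and 42 in Setd8-LKO (2.42 ± 0.35, adjusted p = 0.000986), and its island had no overlap in the Setd8-LKO Lamin A/C list. Gm30619 and Gm9824 (1.88 and 1.85) overlap each other, with listed-gene factors ending the call of Gm30619 (1.06, adjusted p = 0.0645) and leaving that of Gm9824 (1.04, adjusted p = 0.0495), and reads from one cannot be told apart from reads of the other.

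The 3 lower genes were Tmeff2, Gm2582 and Gm20300. Of these, Tmeff2 and Gm2582 passed the count filter only through the WT libraries, so they had to differ in order to be tested. Tmeff2, a transmembrane protein with follistatin domains, had 15, 33, 27, 7 and 34 in WT and 1, 3, 2 and 4 in Setd8-LKO. It was lower in every Setd8-LKO library (-3.21 ± 0.57, adjusted p = 0.00442). It starts 0.646 kb inside the edge of chr1:50900001-51420000, an island without overlap in the Setd8-LKO Lamin A/C list, in which Cavin2 was higher (1.17), a call lost with listed-gene factors (0.32). The long noncoding RNA Gm2582 had 21, 16, 19, 20 and 14 in WT and 2, 6, 4 and 3 in Setd8-LKO (-2.24 ± 0.35, adjusted p = 0.00182). Gm20300 had 238, 195, 333, 337 and 349 in WT and 124, 118, 84 and 159 in Setd8-LKO (-1.26 ± 0.25, adjusted p = 0.0079). Of these lower genes, Tmeff2 and Gm20300 start in islands without overlap in the Setd8-LKO Lamin A/C list and Gm2582 in one covered in full.

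**Figure D5:**
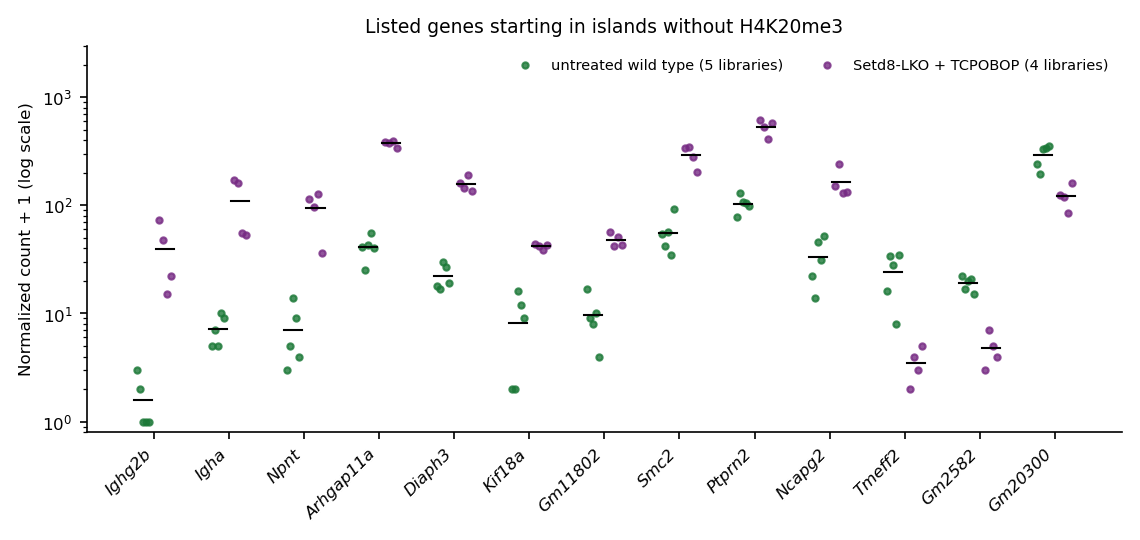
Normalized counts plus 1, on a log axis, of the 10 genes with the largest increase and the 3 with a decrease among genes that start in lamina-only islands, 1 point per library for untreated WT (n = 5) and Setd8-LKO with TCPOBOP (n = 4) and a bar for the mean. The genes were chosen among those whose groups do not overlap. Arhgap11a had 24 to 55 in WT and 341 to 390 in Setd8-LKO.

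In TCPOBOP-treated WT livers, which share their 5 untreated controls with the comparison above, 2 of 719 listed genes started in lamina-only islands. Mcm3 had 221, 114, 228, 328 and 231 normalized counts in treated WT against 69, 79, 78, 100 and 98 in untreated WT. It was called higher (1.40 ± 0.27, adjusted p = 0.0344), where 51.4% of listed genes tested were higher and 16.2% were lower. With TMM factors over the listed genes its change fell to 0.14 without a call, and with DESeq2 factors to 0.23. The whole table then turned to 61 higher and 198 lower with TMM and to 67 and 195 with DESeq2 factors, from 349 and 110. The call was also lost on leaving out any library but treated WT replicate 2. Scn3a, a neuronal sodium channel gene, was too low to be tested, with 8, 8, 83, 8 and 58 in untreated and 5, 5, 1, 8 and 7 in treated WT, and 2 untreated libraries set the difference.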

How the data were processed

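Per the labels and the study's methods, chromatin reads were trimmed with Trimmomatic 0.39 and RNA reads preprocessed with PRINSEQ, and both were aligned to mm10 (HISAT2). ChIP and CUT&Tag reads were reduced in proportion to the smallest sample. The authors called Lamin A/C and H4K20me3 islands with SICER2 (windows and gaps of 20000 bp), deposited with a score for each island. They called the other peaks with MACS2 2.2.7.1, deposited with fold enrichment and −log10 p. Whether libraries were pooled is not given in the sources used here. The deposited RNA tables hold raw counts and normalized counts, a signal that the authors scaled per library, for selected genes only. Their p-values, FDR and fold changes were not used, nor were 114 other per-sample columns.

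Islands and peaks on assembled chromosomes were intersected (at least 1 bp; peaks by centre) in Python 3.11.15 and set against GRCm38 RefSeq sequence and GENCODE M21. Raw counts were tested with edgeR 4.0.16 (quasi-likelihood, authors' factors, R 4.3.3, minimum count 10), adjusted by Benjamini-Hochberg over 55450 genes. The factors matched the normalized counts within 0.0312%. Scripts were tested on simulated counts. The genes named were the 10 with the largest increase and up to 10 with the largest decrease among called genes that start in lamina-only islands and whose groups do not overlap, unless said otherwise. No sequence of chromosome 18 was printed. The islands and gene lists were chosen with earlier results of these data known. RNA libraries came from 2 sequencing runs (A and B), with 3 and 2 untreated WT, 1 and 3 Setd8-LKO and 3 and 2 treated WT libraries. The study's methods describe the RNA libraries as 4 and 5 biological replicates collected on 1 date. One named island and 1 marker list are not reported here.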

Additional observations from a re-analysis of the deposited data

How the results depend on the processing

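Among named genes, 205 values kept their direction and side of the threshold and 15 lost the call, with no reversal. With only Lamin A/C islands above the lowest 25% of scores, 93 lamina-only islands were left, 82.8% overlapped the Setd8-LKO list, and WT CTCF density was 0.537 per Mb. With only H4K20me3 islands above the lowest 25%, the overlap was 66.2%, Setd8-LKO H4K20me3 met 21.4%, and Setd8-LKO H3K27ac and ATAC densities were 1.91 and 1.83 per Mb. With a reciprocal overlap of 50%, 45.3% overlapped. At least 20 kb inside the borders, ATAC density was 1.80 per Mb in WT and 1.78 in Setd8-LKO.

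For genes higher in Setd8-LKO, DESeq2 size factors gave 16, and leaving out 1 library gave 29 to 35. For lower genes, leaving out 1 library gave 2 to 3, protein-coding genes alone (chosen after seeing the data) gave 1, and genes with any overlap gave 8. For treated WT, higher genes numbered 0 with TMM or DESeq2 size factors, 2 with any overlap and 0 to 1 without 1 library. Replicate numbers did not pair the samples (correlations of deviations -0.17 to 0.08 for Setd8-LKO and -0.43 to 0.29 for treated WT). With a replicate block, 24 genes were higher and 1 lower in Setd8-LKO and 0 were higher in treated WT, and the calls of Kif18a (adjusted p = 0.104) and Gm20300 (0.077) were lost. The cause of these differences was not tested. In Tmeff2, counts fell below the filter in the block and without WT 1, 2, 3 or 5. The absence of values per library limits the chromatin results.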

Other observations

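The same rule applied to the Setd8-LKO lists gave 348 Lamin A/C islands without Setd8-LKO H4K20me3, of 1153. Of these, 131 overlapped a lamina-only island of WT, 191 overlapped only WT islands with H4K20me3, and 26 overlapped no WT Lamin A/C island. Of the 147 lamina-only islands with overlap in the Setd8-LKO list, 120 met an island without Setd8-LKO H4K20me3. The Setd8-LKO Lamin A/C list held more islands than the WT list but fewer bases (757.56 against 849.78 Mb), and the H4K20me3 lists held 1635 islands in WT and 2106 in Setd8-LKO over 716.62 and 631.90 Mb.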
